A study of Mus musculus with 18 samples.

Results

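The genes described here are 9 genes of pulmonary surfactant and of the alveolar type 2 cell that makes it. They were chosen by symbol, as Sftpc, Sftpb, Sftpa1, Sftpd, Abca3, Lamp3, Slc34a2, Lpcat1 and Napsa, out of 23420 rows in each of 3 tables, and each symbol had a row in all 3. The tables hold RNA-seq of whole mouse lungs taken 14.5 days after conception (14.5 dpc), from 3 lines in which Cre made at the Shh locus removed a floxed gene from the epithelium. Rptor encodes part of the kinase complex mTORC1, Tfam a mitochondrial DNA-binding protein needed for its upkeep and transcription, and Cox10 an assembly factor of cytochrome c oxidase. Tfam f/f; ShhCre/+ lungs were set against Tfam f/+; ShhCre/+ littermate controls, and likewise Cox10 f/f; ShhCre/+ against Cox10 f/+; ShhCre/+ and Rptor f/f; ShhCre/+ against Rptor f/+; ShhCre/+. The controls thus carried the Cre allele and 1 floxed allele as well, and every sample had Cre in place at the Shh locus. There were 3 samples in each of 6 groups, 18 in all. ShhCre acts in the epithelium while the RNA came from whole lungs, so that in these values fewer epithelial cells and less RNA per cell cannot be told apart. The study combined mutants of different litters in its statistics, but the sources used here do not say which litter a sample came from, and p-values measure the spread between these samples.

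Surfactant is a film of phospholipids and proteins that lowers surface tension in the air spaces. Type 2 cells store it in lamellar bodies and secrete it. Sftpc and Sftpb encode the hydrophobic proteins that help spread the lipid film, and Sftpa1 and Sftpd encode collectins, which bind microbes. ABCA3 carries phospholipid into the lamellar body, LPCAT1 remodels phosphatidylcholine, LAMP3 lies in the lamellar body membrane, napsin A (Napsa) is a protease that helps process pro-SP-B, and SLC34A2 is a sodium-phosphate cotransporter. At 14.5 dpc the lung is still branching and mature type 2 cells have not formed. Sftpc is known to be transcribed at this stage already, in the distal epithelial progenitors, and most other members are known to rise later. Abca3 and Lpcat1 are also transcribed in cells outside the lung epithelium.

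The stretch just upstream of a gene's start is where many of the factors that control surfactant genes bind. RefSeq (GRCm38.p6) entries were held for 6 of the 9 members, namely Sftpb, Sftpa1, Abca3, Lamp3, Slc34a2 and Lpcat1, and not for Sftpc, Sftpd or Napsa. The 250 bases before the start are shown for the 3 of them that changed by over 2-fold in a line, and for Sftpb, which passed the test in no line and holds letters of both main kinds. Capitals mark every match, on either strand, to any of 7 strings. NKX2-1-type letters were CAAGTG, or in a further spelling CTCAAG. Forkhead-type letters were TGTTTAC, with the variants ending in GC (TGTTTGC) or starting with TA (TATTTAC). Letters of the ETS type were CCGGAAG. Letters that C/EBP proteins can bind were TTGCNNAA.

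Sftpa1, chr14:41131538-41131787, plus strand: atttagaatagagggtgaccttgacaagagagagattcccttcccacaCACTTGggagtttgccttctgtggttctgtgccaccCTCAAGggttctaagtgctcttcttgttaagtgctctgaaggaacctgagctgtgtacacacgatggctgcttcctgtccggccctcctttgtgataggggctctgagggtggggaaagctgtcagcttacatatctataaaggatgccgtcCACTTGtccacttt
Lamp3, chr16:19706366-19706615, minus strand: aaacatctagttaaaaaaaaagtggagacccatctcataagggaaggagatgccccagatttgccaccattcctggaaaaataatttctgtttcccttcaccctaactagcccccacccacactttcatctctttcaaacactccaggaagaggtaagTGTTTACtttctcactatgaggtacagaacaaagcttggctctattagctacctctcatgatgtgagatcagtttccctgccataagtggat
Slc34a2, chr5:53049103-53049352, plus strand: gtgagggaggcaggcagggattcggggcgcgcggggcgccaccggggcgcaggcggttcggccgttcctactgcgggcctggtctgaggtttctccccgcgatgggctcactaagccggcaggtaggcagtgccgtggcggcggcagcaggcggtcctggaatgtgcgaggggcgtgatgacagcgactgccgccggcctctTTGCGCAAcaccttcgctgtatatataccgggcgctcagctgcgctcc
Sftpb, chr6:72304360-72304609, plus strand: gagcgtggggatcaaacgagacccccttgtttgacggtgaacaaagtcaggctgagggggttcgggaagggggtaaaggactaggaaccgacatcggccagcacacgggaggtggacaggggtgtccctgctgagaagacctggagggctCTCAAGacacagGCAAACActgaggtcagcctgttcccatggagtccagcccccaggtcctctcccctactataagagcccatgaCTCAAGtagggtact

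Sftpa1 held 3 NKX2-1-type matches, starting 202, 166 and 14 bases before the start. Lamp3 held a forkhead-type match (TGTTTAC) at 92 bases, Slc34a2 a TTGCNNAA match at 48 bases, which matches on both strands, and Sftpb CTCAAG at 100 and at 15 bases with the reverse complement of TGTTTGC at 88 bases. No marked stretch overlapped another. The windows of Abca3 and Lpcat1 held none of the 7 strings. Over 32851 windows of 250 bases, CAAGTG was present in 11.6%, CTCAAG in 13.3%, TGTTTAC in 3.17%, TGTTTGC in 4.30%, TATTTAC in 2.73%, CCGGAAG in 6.91% and TTGCNNAA in 9.56%. These are matches of letters, and no binding was measured. The Slc34a2 window begins 11022 bases downstream of the gene start in GENCODE M21, and those of Sftpa1 and Lamp3 overlap annotated exons by 6 and 10 bases.

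Of the 9 members, 8 were detected in every sample, Slc34a2 at under 10 normalised reads in 5 of the 6 Cox10 samples. Sftpd (chr14:41172214-41185149, minus strand) was at 0 in 12 of 18 samples and reached 4.99 normalised reads at most, so no difference was tested. Per kilobase of exon, which allows genes to be compared within a line, Sftpc (chr14:70520949-70524081, minus strand) stood first in all 6 groups, with 10858 ± 2593 normalised reads per kb in Rptor controls, 6295 ± 786 in Tfam controls and 1316 ± 101 in Cox10 controls (SD, n = 3 each). Lpcat1 (chr13:73467197-73516422, plus strand) and Sftpb (chr6:72304610-72314371, plus strand) came next, with 565 ± 16.3 and 460 ± 69.8 normalised reads per kb in Rptor controls. Abca3 (chr17:24351950-24410201, plus strand) came after these in every group, with 198 ± 13.9 per kb in Rptor controls. Sftpa1 (chr14:41131782-41136452, plus strand), Lamp3 (chr16:19653378-19706375, minus strand), Napsa (chr7:44572380-44586862, plus strand) and Slc34a2 (chr5:53038081-53071664, plus strand) followed with 76.4 ± 6.85, 53.3 ± 8.88, 41.7 ± 18.6 and 6.898 ± 3.905 per kb (SD, n = 3 each), and the intervals of mean ± SD of Lamp3 and Napsa overlapped. The tables of the 3 lines were scaled separately, so levels are set side by side between lines without a test.

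Sample totals lay between 27727202 and 29611064 normalised reads, and 17671 to 17910 genes had a value above 0. Some samples stood apart in the members. Of the 8 detected members, all 8 were highest in Cox10-deficient replicate 3 among the Cox10-deficient lungs, all 8 were highest in Tfam-deficient replicate 3 among the Tfam-deficient lungs, and all 8 were lowest in Rptor-deficient replicate 1 among the Rptor-deficient lungs. The gap was widest in the Cox10 line. There Sftpc was 8.61-fold, Slc34a2 14.95-fold, Napsa 4.65-fold, Lamp3 3.55-fold, Sftpb 2.55-fold, Sftpa1 2.04-fold, Abca3 1.51-fold and Lpcat1 1.12-fold higher in deficient replicate 3 than in the mean of the other two, while Epcam, Cdh1 and Nkx2-1, which mark the lung epithelium, were 1.25-fold, 1.28-fold and 1.20-fold higher. The summed normalised reads of 6 endothelial markers were 35749 in that sample against 24999 and 22595 in the other two, and those of 10 type 1 cell markers were 16127 against 9849 and 10516. Their part in the members' values was not tested.

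**Figure D1:**
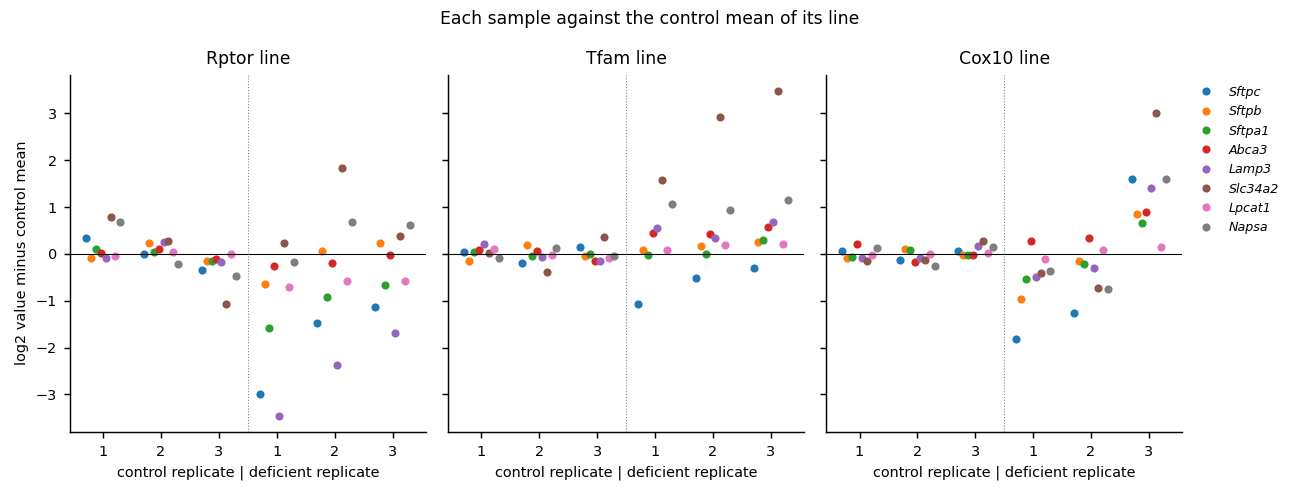
Each point is a member in a sample, as its log2(value + 1) minus the mean of the 3 controls of its line, with control replicates left and deficient replicates right of the dotted line. In Cox10-deficient replicate 3 each of the 8 detected members lies above the control mean, by 3.02 log2 units for Slc34a2.

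To ask whether members of the surfactant programme differed in Rptor-deficient lungs, their levels were compared with those of littermate controls. Sftpc, Sftpa1, Lamp3 and Lpcat1 were lower, and no member was higher. These 4 of the 8 members tested passed the threshold (limma on log2(value + 1), adjusted p below 0.05), where 18.2% of all genes tested passed as lower and 16.6% as higher. The median log2 difference was -0.39 over the members tested and 0.0083 over all genes tested. Groups did not overlap for the same 4 members. Of the 14940 genes tested, 3885 were likewise apart as lower and 3634 as higher.

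Sftpc had 14009, 11013 and 8661 normalised reads in the controls of replicates 1 to 3 and 1393, 3940 and 5040 in the Rptor-deficient lungs. Every deficient sample lay below every control. The log2 difference was -1.86 (SE 0.41), a 3.64-fold lower level (limma adjusted p = 0.00931). Without deficient replicate 1, the lowest, it was -1.31 and still passed (limma adjusted p = 0.00083).

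Sftpb, whose protein is needed to form lamellar bodies, had 845, 1062 and 808 normalised reads in controls and 574, 937 and 1053 in deficient lungs. The groups overlapped, with a log2 difference of -0.12 (95% interval -0.60 to 0.36; limma adjusted p = 0.694). Sftpa1 had 235, 223 and 197 in controls against 72.4, 115 and 136 in deficient lungs, which did not overlap. Its log2 difference was -1.05 (SE 0.22; limma adjusted p = 0.00757), and -0.79 without deficient replicate 1 (limma adjusted p = 0.00336). Thus, of the surfactant proteins, SP-C and SP-A transcripts were lower while for SP-B transcripts no difference was detected.

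Lamp3 showed the largest log2 difference of any member in Rptor-deficient lungs. It had 167, 213 and 157 normalised reads in controls and 15.3, 33.7 and 54.3 in deficient lungs. The difference of -2.50 (SE 0.39) corresponds to a 5.66-fold lower level (limma adjusted p = 0.00199), and was -2.02 without deficient replicate 1 (limma adjusted p = 0.000397). Lpcat1 differed less but with little spread, from 2538, 2688 and 2626 in controls to 1613, 1746 and 1759 in deficient lungs. The log2 difference was -0.62 (SE 0.059; limma adjusted p = 0.000231).

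The other tested members did not pass. Abca3, the lipid transporter, had 1873, 1982 and 1723 normalised reads in controls and 1553, 1630 and 1829 in Rptor-deficient lungs, a log2 difference of -0.16 (95% interval -0.34 to 0.028; limma adjusted p = 0.168). Slc34a2 had 52.9, 37.0 and 13.9 in controls and 35.7, 111 and 39.5 in deficient lungs, a wide spread in both groups (log2 difference 0.82, 95% interval -0.43 to 2.06; limma adjusted p = 0.277). Napsa had 168, 89.9 and 75.6 in controls and 92.8, 168 and 161 in deficient lungs (log2 difference 0.38, 95% interval -0.36 to 1.12; limma adjusted p = 0.398). Leaving out any single sample of the line left the number of members past the threshold at 4.

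**Figure D2:**
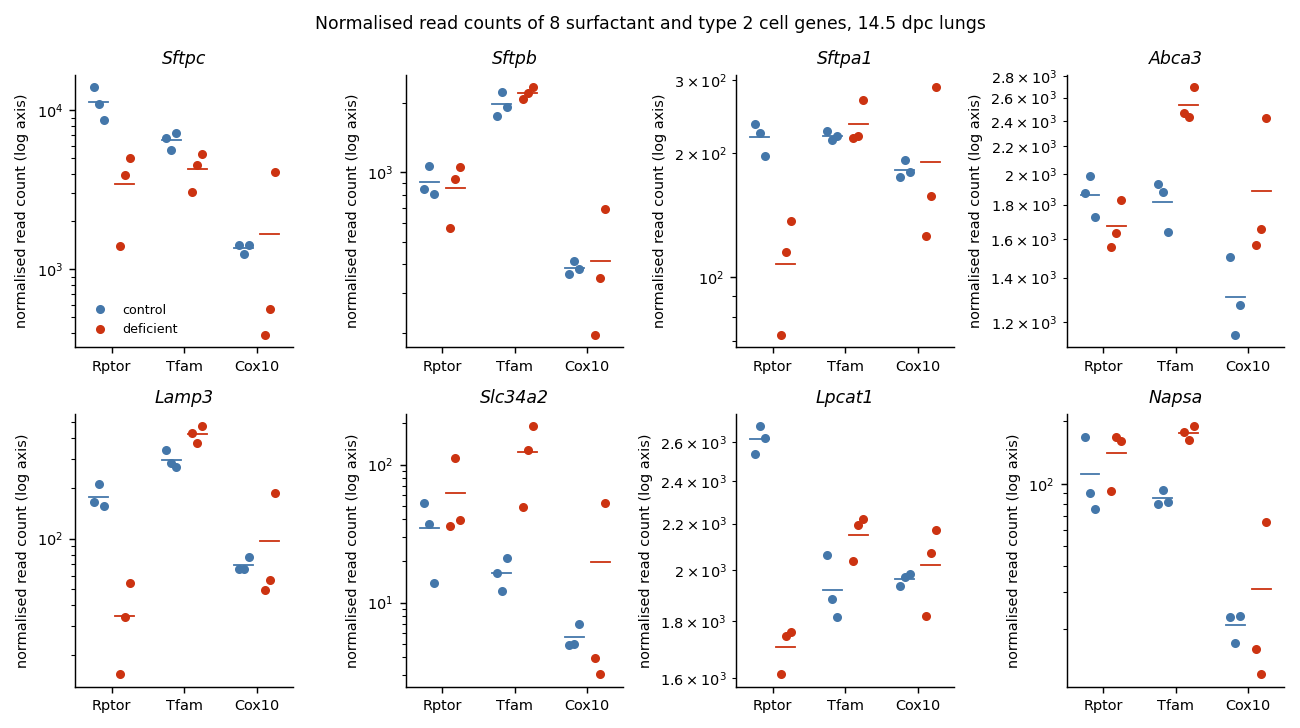
Normalised read counts (log axis, scaled separately for each gene) of the 8 detected members in each control (blue) and deficient (red) sample of the 3 lines, with the group mean as a bar. Rptor-deficient lungs lie below their controls without overlap for Sftpc, Sftpa1, Lamp3 and Lpcat1, and Tfam-deficient lungs lie above theirs for Abca3, Lamp3, Slc34a2 and Napsa. Among all genes tested, 3885 of 14940 lay apart as lower in the Rptor line and 1645 of 15053 as higher in the Tfam line.

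The members that passed in Tfam-deficient lungs had the opposite direction. Abca3, Lamp3, Slc34a2 and Napsa were higher than in controls, and no member passed as lower. These were 4 of 8 members tested, where 2.03% of all genes tested passed as higher and 2.63% as lower. The median log2 difference was 0.33 over the members tested and 0.00098 over all genes tested. Groups did not overlap for 4 members as higher and 1 as lower. Of the 15053 genes tested, 1645 were likewise apart as higher and 1783 as lower.

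Slc34a2, the phosphate cotransporter, had 16.3, 12.1 and 21.0 normalised reads in controls and 49.6, 128 and 190 in Tfam-deficient lungs. Deficient samples lay above all controls but spread over a wide range. The log2 difference was 2.66 (SE 0.41), a 6.30-fold higher level (limma adjusted p = 0.00364), and lay between 2.24 and 3.20 in the fits without single samples. Napsa had 80.3, 93.0 and 82.0 in controls and 178, 163 and 190 in deficient lungs, with little spread in either group. Its log2 difference was 1.05 (SE 0.13; limma adjusted p = 0.000823).

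Abca3 had 1928, 1881 and 1638 normalised reads in controls and 2464, 2433 and 2697 in Tfam-deficient lungs, a log2 difference of 0.48 (SE 0.074; limma adjusted p = 0.00358). Lamp3 had 340, 284 and 268 in controls and 432, 376 and 473 in deficient lungs, a log2 difference of 0.52 (SE 0.12; limma adjusted p = 0.0282). Neither gene overlapped between the groups. The call for Lamp3 was the less stable, since it was lost without control replicate 2 or 3 or deficient replicate 1 or 3 (highest limma adjusted p = 0.129). None of the 4 calls was made when all 18 samples entered a single fit, in which the spread of the Cox10-deficient lungs is shared (limma adjusted p = 0.0598 for Abca3, 0.606 for Lamp3, 0.0756 for Slc34a2 and 0.252 for Napsa).

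Sftpc was the only member with a negative difference in Tfam-deficient lungs. It had 6698, 5619 and 7210 normalised reads in controls and 3066, 4517 and 5272 in deficient lungs, and the groups did not overlap. The log2 difference of -0.63 (SE 0.16) missed the threshold (limma adjusted p = 0.0562). It passed without control replicate 2 (limma adjusted p = 0.0475) or without deficient replicate 3 (limma adjusted p = 0.0240).

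For Sftpb, Sftpa1 and Lpcat1 no difference was detected in the Tfam line. Sftpb had 1754, 2239 and 1910 normalised reads in controls and 2073, 2200 and 2344 in deficient lungs (log2 difference 0.17, 95% interval -0.022 to 0.36; limma adjusted p = 0.351). Sftpa1 had 226, 214 and 220 in controls and 217, 219 and 269 in deficient lungs (log2 difference 0.089, 95% interval -0.15 to 0.33; limma adjusted p = 0.743). Lpcat1 had 2062, 1885 and 1815 in controls and 2037, 2192 and 2223 in deficient lungs (log2 difference 0.16, 95% interval 0.018 to 0.31; limma adjusted p = 0.226). The groups overlapped for all 3 genes.

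Among Cox10-deficient lungs the members differed widely between replicates. None of 7 members tested passed the threshold in limma, and 1 (Abca3) had an unadjusted p below 0.05, as had 13% of all genes tested. Of all genes tested, 0.141% passed as higher and 0.335% as lower. The median log2 difference was 0.038 over the members tested. Groups did not overlap for 1 member, as higher. Of the 14937 genes tested, 1582 were likewise apart as higher and 1607 as lower.

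Sftpc had 1422, 1241 and 1419 normalised reads in Cox10 controls, a narrow range, and 386, 562 and 4084 in deficient lungs. Replicates 1 and 2 lay below every control and replicate 3 above every control. The log2 difference was -0.50 (95% interval -2.24 to 1.24; limma adjusted p = 0.790). Without replicate 3, the highest, it was -1.54 and passed the threshold (limma adjusted p = 0.00308). Without replicate 1, the lowest, it was 0.16 and did not pass (limma adjusted p = 0.930).

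The same split was seen for Sftpb, with 360, 414 and 380 normalised reads in controls and 197, 346 and 693 in Cox10-deficient lungs, and for Sftpa1, with 175, 192 and 180 in controls and 126, 157 and 289 in deficient lungs. Lamp3 had 65.5, 65.6 and 78.0 in controls and 48.9, 56.3 and 187 in deficient lungs. Napsa had 22.8, 17.1 and 23.0 in controls and 16.0, 12.1 and 65.2 in deficient lungs. In these 4 genes deficient replicates 1 and 2 lay below all controls and replicate 3 above, and the log2 differences of -0.087, -0.026, 0.21 and 0.17 had 95% intervals of -0.97 to 0.80, -0.66 to 0.61, -0.85 to 1.27 and -1.15 to 1.48.

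Slc34a2 had 4.963, 5.043 and 6.996 normalised reads in Cox10 controls and 3.99, 3.02 and 52.4 in deficient lungs, and was not tested because fewer than 3 samples reached 10. Abca3 had 1505, 1149 and 1273 in controls and 1568, 1656 and 2428 in deficient lungs, without overlap. Its log2 difference was 0.51 (95% interval 0.12 to 0.90; limma adjusted p = 0.302), and 0.31 without replicate 3. Lpcat1 had 1935, 1971 and 1985 in controls and 1819, 2073 and 2173 in deficient lungs (log2 difference 0.038, 95% interval -0.12 to 0.20; limma adjusted p = 0.830).

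**Figure D3:**
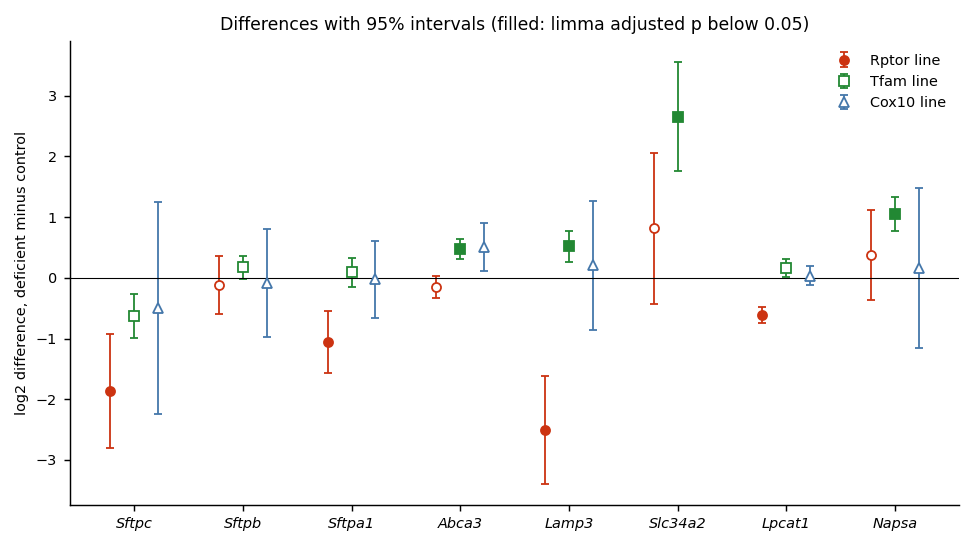
Log2 difference, deficient minus control, of each member tested in the Rptor (circles), Tfam (squares) and Cox10 (triangles) line, with its 95% interval, where filled symbols passed the threshold. Lamp3 lies at -2.50 in the Rptor line and at 0.52 in the Tfam line, and the intervals of the Cox10 line are wide for Sftpc, Lamp3 and Napsa.

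To ask whether the deletions differed in their effect on a member, all 18 samples entered a model in which each effect was taken within its line. Of the members, 7 were tested in all 3 lines. The effect of Rptor deletion lay below that of Tfam deletion for Lamp3, Sftpa1, Lpcat1 and Abca3, by log2 differences of -3.02 (SE 0.57; limma adjusted p = 0.00308), -1.14 (SE 0.34; limma adjusted p = 0.0369), -0.78 (SE 0.093; limma adjusted p = 6.54e-05) and -0.64 (SE 0.19; limma adjusted p = 0.0356). Of all genes tested, 11.2% passed in this comparison. The calls for Lamp3 and Lpcat1 held in all 18 fits that left out a sample. The call for Sftpa1 was lost in 7 of them, without Rptor control 1 or 2 or deficient 1, or Tfam control 1 or 2 or deficient 2 or 3 (highest limma adjusted p = 0.0951). The call for Abca3 was lost in 9, without Rptor control 1 or 2 or deficient 1 or 2, Tfam control 2 or 3, or any Tfam-deficient sample (highest limma adjusted p = 0.0891).

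Against Cox10 deletion, the effect of Rptor deletion was lower for Lamp3, Lpcat1 and Abca3, by -2.71 (SE 0.57; limma adjusted p = 0.00742), -0.66 (SE 0.093; limma adjusted p = 0.000391) and -0.66 (SE 0.19; limma adjusted p = 0.0366) on the log2 scale. In this comparison 7.48% of all genes tested passed. The call for Abca3 was lost in 6 of 18 fits, without Rptor control 1 or 2, Rptor deficient 1 or 2, or Cox10 control 2 or 3 (highest limma adjusted p = 0.0912). Sftpa1 was at -1.03 and missed the threshold (SE 0.34; limma adjusted p = 0.0718), but passed without Rptor-deficient replicate 3 (limma adjusted p = 0.0387) or Cox10-deficient replicate 1 (limma adjusted p = 0.0199). For Sftpc the effect of Rptor deletion did not differ detectably from that of Tfam deletion (-1.23, 95% interval -3.01 to 0.55; limma adjusted p = 0.363) or of Cox10 deletion (-1.37, 95% interval -3.14 to 0.41; limma adjusted p = 0.355). This fit shares the spread of all groups, the Cox10-deficient lungs among them. Its SE for Sftpc was 0.84, against 0.41 and 0.16 within the Rptor and Tfam lines. A difference between Rptor and Tfam deletion could thus be missed. Between the effects of Tfam and Cox10 deletion no member passed in limma, where 0.055% of all genes did, and no member had an unadjusted p below 0.05, where 4.56% of all genes had. When genes tested in at least 1 line were fitted, which brings in Slc34a2, the effect of Rptor deletion minus that of Tfam deletion was -1.84 (95% interval -4.10 to 0.42; limma adjusted p = 0.288) and that of Tfam minus Cox10 deletion 2.02 (95% interval -0.24 to 4.29; limma adjusted p = 0.982), and neither passed. Taken relative to the 3 epithelial genes described next, only Lamp3 still passed between Rptor and Tfam deletion (-2.12; limma adjusted p = 0.000246). On that scale 88.4% of all genes tested passed with a positive and 0.502% with a negative difference, while for Abca3, Lpcat1, Sftpb and Napsa the sign of the difference turned. Between Rptor and Cox10 deletion, Lamp3 (-1.93; limma adjusted p = 0.000838) and Sftpb (0.74; limma adjusted p = 0.0327) passed on that scale, where 84.2% of all genes tested passed with a positive and 0.667% with a negative difference. The pass of Sftpb thus does not set it apart from other genes.

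The members are genes of the epithelium, so 3 general epithelial genes were examined beside them. The mean log2 level of Epcam, an adhesion molecule of epithelial cells, Cdh1, which encodes E-cadherin, and Nkx2-1, the transcription factor of lung epithelium, differed between deficient and control lungs by -1.17 for Rptor, -0.27 for Tfam and -0.40 for Cox10. Groups did not overlap in any line (exact permutation p = 0.1 in each, the smallest that 3 samples against 3 allow). The 3 genes did not move equally, and a smaller share of epithelial RNA cannot be told apart from lower expression of these genes. Their log2 differences were -0.77, -1.89 and -0.85 in Rptor-deficient lungs, where all 3 passed, and -0.048, -0.55 and -0.22 in Tfam-deficient lungs, where only Cdh1 did. Differences of -0.30, -0.43 and -0.45 were found in Cox10-deficient lungs, where none passed in limma. Without Cox10-deficient replicate 3 all 3 passed there (limma adjusted p = 0.00655 for Epcam, 0.00215 for Cdh1 and 0.0117 for Nkx2-1). Of all genes tested, 18.2%, 2.63% and 0.335% passed as lower in the Rptor, Tfam and Cox10 lines. Among 11 genes of a broader epithelial list, 11 were lower past the threshold with Rptor deletion, 5 with Tfam deletion and 2 with Cox10 deletion, and none higher. Leaving out single samples gave 11, 3 to 5 and 0 to 8 (8 without Cox10-deficient replicate 3, and 0 without any single Cox10 control or deficient replicate 2). In the Tfam line the count was 3 without control or deficient replicate 1.

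The members were therefore also expressed relative to the mean log2 level of these 3 genes in the same sample. On this scale most genes of a lung lie above controls in deficient samples, since the reference was lower there, and the median of all genes tested was 1.18 with Rptor deletion, 0.27 with Tfam deletion and 0.40 with Cox10 deletion. A positive value is thus a difference that lies above that of the reference, not a higher level. On the same scale the other 9 genes of the broader epithelial list spanned -0.18 to 0.72 with Rptor deletion, -0.36 to 0.45 with Tfam deletion and -0.26 to 0.37 with Cox10 deletion.

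Relative to the reference, Rptor-deficient lungs had lower Lamp3 (-1.33) and Sftpc (-0.69), an Sftpa1 level close to that of controls (0.12), and relatively higher Lpcat1 (0.55), Abca3 (1.02), Sftpb (1.05), Napsa (1.55) and Slc34a2 (1.99), all as log2 differences. Of the 8 members, 5 lay above all controls and 1 (Lamp3) below, where 94% and 0.843% of all genes did. Lamp3 and Sftpc lay below the range of the other 9 epithelial genes, but Cdh1, which is part of the reference, had a log2 difference of -1.89 and Sftpc one of -1.86. The values turned on the reference gene. With Cdh1 alone as reference, Sftpc was at 0.023 (exact permutation p = 1.0), Lamp3 at -0.61 (exact permutation p = 0.3) and Sftpa1 at 0.83 (exact permutation p = 0.1). Sftpa1 was at -0.28 with Epcam alone and -0.20 with Nkx2-1 alone (exact permutation p = 0.3 for each). Relative Sftpc was 1.40, 1.11 and 0.731 in controls and -0.50, 0.726 and 0.93 in deficient lungs (exact permutation p = 0.2). Deficient replicate 1 lay far below the controls, replicate 2 just below the lowest of them, and replicate 3 within their range. Without deficient replicate 1 the relative differences of Sftpc and Lamp3 were -0.25 and -0.97.

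For Tfam-deficient lungs, 7 of 8 members lay above all controls on the relative scale and none below, against 56.5% and 1.83% of all genes. The differences were 2.93 for Slc34a2, 1.32 for Napsa, 0.79 for Lamp3, 0.75 for Abca3, 0.44 for Sftpb and Lpcat1, and 0.36 for Sftpa1, with an exact permutation p = 0.1 for each. Sftpc was at -0.36 and the groups overlapped (exact permutation p = 0.2).

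Cox10-deficient lungs had 2 of 8 members, Abca3 at 0.90 and Lpcat1 at 0.43, above all controls on the relative scale and none below, where 61.8% and 0.736% of all genes did. Relative Sftpc was -1.47, -1.66 and -1.44 in controls and -2.75, -2.37 and 0.25 in deficient lungs. Without deficient replicate 3 the relative difference of Sftpc went from -0.10 to -1.04 and the median of the 8 members from 0.50 to 0.027.

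Over all 3 lines together, with labels permuted within lines, 6 members were higher relative to the reference. The mean relative difference was 1.98 for Slc34a2 (exact permutation p = 0.00175), 1.14 for Napsa (exact permutation p = 0.00125), 0.89 for Abca3 (exact permutation p = 0.00025, the smallest that 8000 arrangements allow), 0.60 for Sftpb (exact permutation p = 0.0045), 0.47 for Lpcat1 (exact permutation p = 0.00025) and 0.28 for Sftpa1 (exact permutation p = 0.0065), out of 8 members tested. The same test passed at 0.05 as higher for 92.4% and as lower for 0.962% of all genes, with a median of 0.62, so these passes do not set the members apart. With Epcam alone as reference 4 members passed, without Sftpb (exact permutation p = 0.0565) and Sftpa1 (exact permutation p = 0.738), and with Nkx2-1 alone 5 passed, without Sftpa1 (exact permutation p = 0.162). Lamp3 was at 0.023 (exact permutation p = 0.947), being lower in the Rptor line and higher in the other two. Sftpc was at -0.38 (exact permutation p = 0.298), and at -0.70 without Cox10-deficient replicate 3 (exact permutation p = 0.00175).

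**Figure D4:**
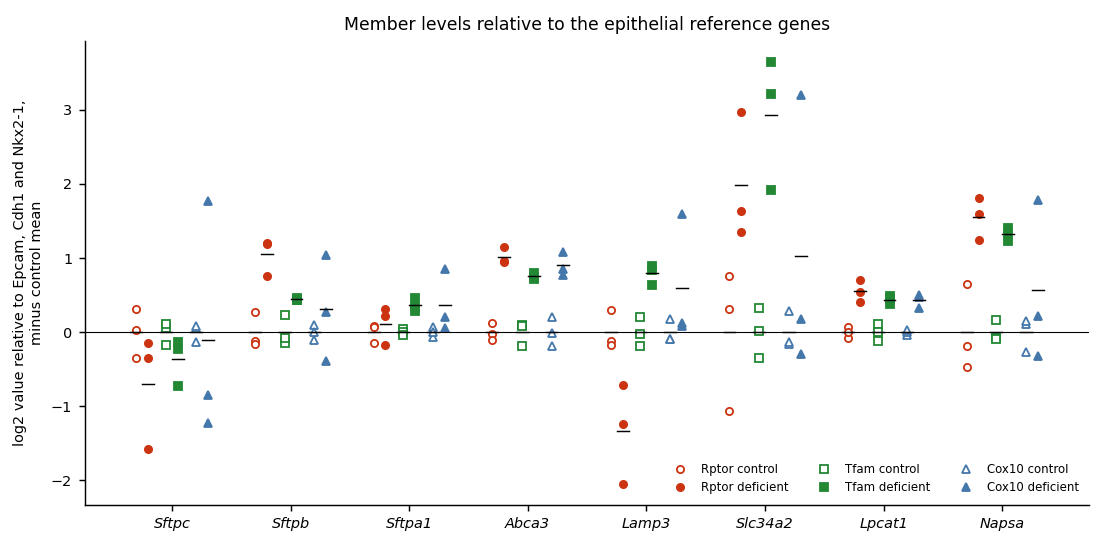
Log2 level of each member after subtraction of the reference mean (Epcam, Cdh1, Nkx2-1) of the same sample, minus the control mean of the line, for controls (open) and deficient lungs (filled) of each line, with group means as bars. Slc34a2 and Napsa lie highest in the Rptor and Tfam lines, while Lamp3 lies at -1.33 in the Rptor line and at 0.79 in the Tfam line.

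Factors known to drive surfactant genes were examined as a list of 12. Counts of this and the following lists stand beside the shares of all genes tested that passed. In the Rptor line 18.2% passed as lower and 16.6% as higher. The shares were 2.63% and 2.03% in the Tfam line, and 0.335% and 0.141% in the Cox10 line. In Rptor-deficient lungs 6 were lower and 6 higher, with a median log2 difference of -0.033. The lower ones were Foxa1 (-1.79), Etv5 (-1.07), Klf5 (-0.998), Nkx2-1 (-0.85), Foxa2 (-0.58) and Srebf1 (-0.33), among them the forkhead factors of the foregut epithelium and the homeobox factor that binds many surfactant promoters. The higher ones were Gata6 (0.72), Cebpa (0.65), Cebpd (0.48), Nfib (0.41), Stat3 (0.36) and Nr3c1 (0.26), all of which are also transcribed outside the epithelium. Srebf1 no longer passed without control replicate 1 or 3 or deficient replicate 2 or 3, nor Nfib and Nr3c1 without control replicate 3 (highest limma adjusted p = 0.0763, 0.0615 and 0.0564). Tfam-deficient lungs had 3 lower, Foxa1 (-0.65), Etv5 (-0.55) and Foxa2 (-0.41), and none higher. Cox10-deficient lungs had 2 lower, Foxa1 (-0.66; limma adjusted p = 0.0184) and Foxa2 (-0.39; limma adjusted p = 0.0390). Foxa1 and Foxa2 thus passed as lower in all 3 lines. In the Cox10 line both calls were lost without any single control or without deficient replicate 2, and that for Foxa2 also without deficient replicate 1 (highest limma adjusted p = 0.139 for Foxa1 and 0.304 for Foxa2). Foxa2 also missed the threshold there under the replicate block (limma adjusted p = 0.0657) and when scaled to sample totals (limma adjusted p = 0.0501).

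**Figure D5:**
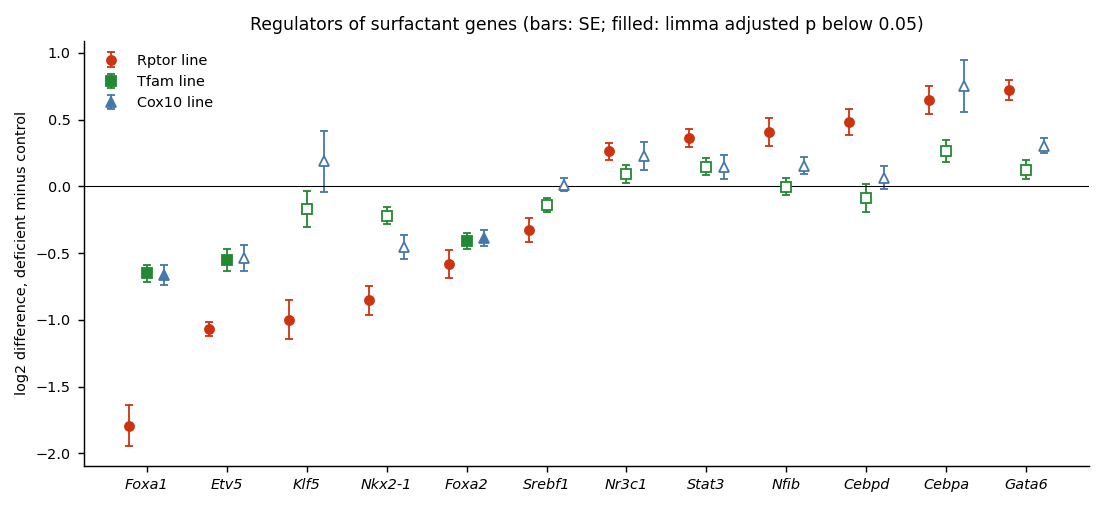
Log2 difference, deficient minus control, with its SE, of 12 regulators of surfactant genes in the Rptor (circles), Tfam (squares) and Cox10 (triangles) line, ordered by the Rptor line, where filled symbols passed the threshold. Foxa1 is lowest in each line, at -1.79, -0.65 and -0.66.

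Genes of the machinery around surfactant were counted in 3 further lists. Of 10 genes of protein processing and lamellar body biogenesis, Nedd4l, a ubiquitin ligase that acts in SP-C trafficking, was the only gene past the threshold, at -0.30 in the Rptor line (limma adjusted p = 0.0181) and -0.44 in the Tfam line (limma adjusted p = 0.00289). In the former it was lost without control replicate 1 or deficient replicate 2 (highest limma adjusted p = 0.0721). None passed in the Cox10 line, and medians were 0.017, -0.016 and 0.041 for the 3 lines. Of 18 genes of lipid synthesis, 7 were lower and 2 higher in Rptor-deficient lungs (median -0.23), where 18.2% and 16.6% of all genes passed. The lower count was 3 without control replicate 1 or deficient replicate 3. Acaca, which makes malonyl-CoA for fatty acid synthesis, was at -0.48, and Lpin1 and Dgat2, which act in triglyceride synthesis, were at 0.89 and 0.69. The Tfam line had 1 lower and 1 higher, the latter Pla2g1b, a phospholipase, at 0.69, and the Cox10 line had none in limma. The lower count of the Tfam line was 5 without control replicate 3 and 0 without any other single sample. Pla2g1b was lost without control replicate 1 or any deficient sample (highest limma adjusted p = 0.104), with no filter on low values (limma adjusted p = 0.0509), under the replicate block (limma adjusted p = 0.0517) and with all 18 samples in a single fit (limma adjusted p = 0.418). Of 6 genes of surfactant uptake and clearance, 5 were higher in Rptor-deficient lungs, among them Abca1 (0.70), Abcg1 (0.54), Csf2ra (0.49) and Csf2rb (0.44), which macrophages are known to express, and none passed in the other two lines by limma. Csf2rb passed only in the fit without deficient replicate 3 when samples were left out (highest limma adjusted p = 0.131), and was lost with no filter on low values (limma adjusted p = 0.0649), with Xist as a covariate (limma adjusted p = 0.0848) and with all 18 samples in a single fit (limma adjusted p = 0.161). The 6 macrophage markers passed as higher in Rptor-deficient lungs too, with summed levels of 3399 to 3865 in controls and 5449 to 6440 in deficient lungs, and their part was not tested.

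Of 18 other type 2 cell markers, 13 were tested in the Rptor line. There 8 were lower and 2 higher, against 18.2% and 16.6% of all genes tested. Of the higher ones, Lyz2 was lost without control or deficient replicate 1 or 3 (highest limma adjusted p = 0.149), with no filter on low values (limma adjusted p = 0.0622), under the replicate block (limma adjusted p = 0.0571), with Xist as a covariate (limma adjusted p = 0.0737) and with all 18 samples in a single fit (limma adjusted p = 0.2995). The lower count was 4 without control replicate 1 and 5 without control replicate 2. Muc1, a membrane mucin, had -3.30, Hc, complement component C5, -1.92, Dram1 -1.58 and Ppp1r14c -1.40 as log2 differences. Hc reached 10 normalised reads in the 3 controls and in 0 deficient samples, and so entered the test only through the group in which it was high. Of 14 tested in the Tfam line 3 were lower, Muc1 (-1.29), Ppp1r14c (-0.57) and Dram1 (-0.33), and Cd36, a fatty acid transporter, was higher (0.80). Dram1 was lost there without control or deficient replicate 1 (highest limma adjusted p = 0.0763). When all 18 samples shared a single estimate of the spread, Ppp1r14c (limma adjusted p = 0.346), Dram1 (limma adjusted p = 0.384) and Cd36 (limma adjusted p = 0.212) no longer passed in the Tfam line. Of 12 tested in the Cox10 line none passed in limma. Lyz1, S100g, Chil1, Mlc1 and Lrg1, markers of mature type 2 cells, were at 0 in at least 1 sample and reached 20.9 normalised reads at most.

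Markers of other cells moved with the Rptor genotype. Of 6 endothelial markers 6, of 8 mesenchymal markers 6 and of 6 macrophage markers 6 passed as higher in Rptor-deficient lungs and none as lower. Leaving out single samples gave 5 to 6, 5 to 6 and 4 to 6. The calls lost were those of Cldn5 without control replicate 1 or 2 or deficient replicate 2, Acta2 without control replicate 2 or 3 or deficient replicate 1, Mrc1 without control replicate 1 or 2 or deficient replicate 1 or 3, and Cd68 without control replicate 2 (highest limma adjusted p = 0.0812, 0.145, 0.107 and 0.0501). The count of macrophage markers was 4 without control replicate 2. Summed levels of controls and deficient lungs were 31346 to 32810 and 40033 to 45290 for endothelial markers, and 155946 to 182054 and 301668 to 328251 for mesenchymal markers. In the other two lines, of these 3 lists only 1 mesenchymal marker of the Tfam line, Acta2, passed, as lower, and it was lost in 4 of the 6 fits without single samples (highest limma adjusted p = 0.169). Heart markers, whose summed level ran from 669 to 21272 between single samples, had Myh7 higher in the Rptor line (1 of 4 tested) and Nppa higher in the Tfam line (1 of 5), neither of which passed with all 18 samples in a single fit (limma adjusted p = 0.0672 and 0.481). Liver markers had Afp higher in the Rptor line (1 of 3 tested), a call lost without any single control (highest limma adjusted p = 0.110), and summed to 107 to 1405 between samples. None of the 3 erythroid markers tested passed by limma, and Hba-a2 was listed at 0 in all 18 samples. The part of these cells in the members' values was not tested.

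Among the 8 genes most like Sftpc over the 18 samples, members set aside, after the control mean of each line was subtracted, were Pcbd1, Bcam, Cldn18, Sel1l3, Rab25, Mansc1 and Tinagl1, with Pearson correlations of 0.928, 0.921, 0.918, 0.914, 0.902, 0.900 and 0.900, out of 12947 genes. Of the members, Sftpa1 followed Sftpc most closely (0.901), then Lamp3 (0.802), Sftpb (0.698), Lpcat1 (0.661), Abca3 (0.380) and Napsa (0.343). These are descriptions over samples that share line and genotype, among them the low Rptor-deficient replicate 1 and the high Cox10-deficient replicate 3.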

How the data were processed

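RNA-seq of whole embryonic lungs at 14.5 dpc was analysed from 3 tables of the authors, 1 for each line, with 3 deficient and 3 control samples each, grouped by sample title. Per the study's methods, RNA was extracted with TRIzol and RNeasy columns and sequenced on a BGISEQ-500 instrument. The submitters' processing notes name Trim Galore, HISAT2, featureCounts, DESeq2 and the build mm10, without versions or settings. The authors deposited normalised signal values, read counts divided by a size factor per sample. All were whole multiples of a step of 0.978 to 1.02 (100% within 0.01). The authors' own fold changes and p-values were not used.

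Values were taken as log2(value + 1), which understates changes of low genes. Genes with at least 10 in at least 3 of 6 samples were tested for each line in limma 3.58.1 (R 4.3.3; trend, two-sided, Benjamini-Hochberg over all genes tested, threshold 0.05), and differences between lines in a fit of all 18 samples on the 14550 genes tested in all lines. Levels relative to Epcam, Cdh1 and Nkx2-1 were compared by two-sided exact permutation tests in Python 3.11.15. On simulated data limma recovered 94.5%, 93% and 93.5% of 200 genes changed 2-fold in the Rptor, Tfam and Cox10 lines. The simulation gave every gene and group the same small dispersion. Its recovery therefore does not apply to members with a wider spread, such as Sftpc in Cox10-deficient lungs (1677 ± 2086 normalised reads, SD, n = 3). Between samples the chi-square per gene was at least 4.09 in all 153 pairs, so no samples agreed within sampling noise. Same-numbered samples deviated together in the Rptor line (correlations 0.221, 0.330 and 0.259), but not in every pair of the Tfam (-0.312, -0.207 and 0.151) and Cox10 lines (0.447, 0.202 and 0.0488); the numbers come from the titles. Gene positions are from GENCODE M21 (GRCm38) and upstream sequences from RefSeq (GRCm38.p6).

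The members and gene lists were chosen with earlier results of these data known. Named besides the 9 members and 3 reference genes are up to 4 genes of each list with the largest log2 difference past the threshold in a line, and the 8 genes with the highest correlation with Sftpc among those with a mean of at least 50. Further list genes, such as the other regulators and Cd36, were named after their values were seen. Some list genes that met these rules are not reported here. Alternatives were other scalings, filters and pseudocounts, other epithelial references, the replicate number as a block, Xist as a covariate, and leaving out each sample.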

Additional observations from a re-analysis of the deposited data

Results flagged for a closer look

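Effects that differed between lines in the limma test of the difference were found for 4 members, where 11.2% of all genes tested passed between Rptor and Tfam deletion and 7.48% between Rptor and Cox10 deletion. With Rptor deletion minus Tfam deletion, the log2 difference of effects was -3.02 for Lamp3, -1.14 for Sftpa1, -0.78 for Lpcat1 and -0.64 for Abca3. With Rptor deletion minus Cox10 deletion, it was -2.71 for Lamp3, -0.66 for Lpcat1 and -0.66 for Abca3. Between Rptor and Tfam deletion the calls for Abca3 and Sftpa1 were lost in 9 and 7 of 18 fits without single samples, and between Rptor and Cox10 deletion that for Abca3 in 6. Relative to the epithelial reference the differences of Abca3 and Lpcat1 turned positive in both comparisons, and that of Sftpa1 no longer passed. The epithelial reference genes also differed most in the Rptor line (-1.17 against -0.27 and -0.40), and their part in these differences beyond the relative values was not tested.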

How the results depend on the processing

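The 4 lower members of the Rptor line passed under every scaling, filter, pseudocount, covariate and sample left out. With all 18 samples in a single fit, 0 members passed in the Tfam line. The sources do not say that same-numbered samples are paired. Their correlations were 0.221 to 0.330 in the Rptor line, 0.0488 to 0.447 in the Cox10 line and -0.312 to 0.151 in the Tfam line. The replicate block left 4 members past the threshold for Rptor deletion and 0 for Cox10 deletion. It gave 5 for Tfam deletion, where Sftpc passed (limma adjusted p = 0.0331), and changed no other call of a member. Sftpc in the Tfam line also passed with Xist as a covariate (limma adjusted p = 0.00228). Leaving out single samples gave 0 to 1 members in the Cox10 line (1 without deficient replicate 3) and 2 to 4 members whose effect differed between Rptor and Tfam deletion, against 1 relative to the epithelial mean, and 2 to 4 between Rptor and Cox10 deletion. On the relative scale the difference between Rptor and Tfam deletion turned to 0.61 for Sftpb, 0.26 for Abca3, 0.12 for Lpcat1 and 0.23 for Napsa, and for Rptor against Cox10 deletion to 0.74 for Sftpb, 0.11 for Abca3 and 0.12 for Lpcat1. For Tfam against Cox10 deletion it turned to -0.0074 for Sftpa1. The median relative difference of the members was 0.39 with Epcam alone and 1.501 with Cdh1 alone as reference for Rptor deletion, and 0.37 and 0.88 for Tfam deletion. Lamp3 over all lines turned to -0.034 with the broad epithelial list, -0.22 with Epcam alone and -0.081 with Nkx2-1 alone. Gene lists moved too. For Cox10 deletion, the single fit of 18 samples gave 2 regulators higher and 4 lower and 5 broad epithelial genes lower, and leaving out deficient replicate 3 gave 2 regulators higher and 4 lower. Heart markers higher in the Tfam line went from 1 to 5 with Xist as a covariate. The cause was not tested.

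Without single samples, signs turned for differences that had not passed. Sftpb spanned -0.29 to 0.15 with Rptor deletion, and with Tfam deletion Sftpa1 spanned -0.010 to 0.14 and Epcam -0.15 to 0.060. Cox10 line spans were -1.54 to 0.16 for Sftpc, -0.56 to 0.35 for Sftpb, -0.37 to 0.23 for Sftpa1, -0.40 to 0.56 for Lamp3, -0.016 to 0.11 for Lpcat1 and -0.55 to 0.62 for Napsa. For Rptor against Cox10 deletion they were -0.47 to 0.44 for Sftpb and -0.24 to 0.93 for Napsa. For Tfam against Cox10 deletion they were -0.14 to 0.17 for Abca3, -0.79 to 0.91 for Sftpc, -0.18 to 0.73 for Sftpb, -0.14 to 0.46 for Sftpa1 and -0.037 to 0.92 for Lamp3. Lamp3 over all lines spanned -0.14 to 0.14. Count models in edgeR and DESeq2 on reads recovered from the steps were planned and not run. At 3 samples a group, exact permutation tests within a line cannot go below 0.1.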

Other observations

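Markers of other epithelial fates were counted beside the members. Of all genes tested, 18.2% passed as lower and 16.6% as higher in the Rptor line. The shares were 2.63% and 2.03% in the Tfam line, and 0.335% and 0.141% in the Cox10 line. In Rptor-deficient lungs, of 8 proximal airway markers, 4 of 7 tested were lower and none higher, with log2 differences of -4.71 for Scgb3a2, a gene of secretory cells, and -3.09 for Sox2, the factor of the conducting airway. A further one of the 4 was Cyp2f2, also of secretory cells, with 103 ± 52.6 normalised reads in controls, while deficient lungs had 0.999 ± 0.018 (SD, n = 3 each). It entered the test only through the controls, where it was high, and its fitted difference of -5.58 depends on the pseudocount of 1. In Tfam-deficient lungs 3 of 7 were lower, among them Scgb3a2 (-0.95) and Sox2 (-0.51; lost without control replicate 2 or deficient replicate 2 or 3, highest limma adjusted p = 0.0791), neither of which passed with all 18 samples in a single fit (limma adjusted p = 0.456 and 0.414), and in Cox10-deficient lungs none of 5 passed in limma. Scgb1a1, the defining club cell gene, was at 0 in 14 of 18 samples.

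Of 10 type 1 cell markers, 5 were lower in the Rptor line, among them Cldn18 (-1.29), Hopx (-1.14) and Rtkn2 (-0.76), and 1, Cav1 (0.62), which endothelial cells also express, was higher. Ager, the receptor that marks type 1 cells, did not pass in the Rptor line. It was lower with Tfam deletion (-1.53) and with Cox10 deletion (-0.75). Cox10 controls had 390 ± 27.6 normalised reads of Ager and deficient lungs 233 ± 24.1 (SD, n = 3). The call was lost under the replicate block (limma adjusted p = 0.0732) and in 5 of the 6 fits without single samples, all but that without deficient replicate 3 (highest limma adjusted p = 0.2503). Cldn18 was also lower in the Tfam line (-0.43), but not with all 18 samples in a single fit (limma adjusted p = 0.327). Ager thus passed in the line in which no member did.

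Of 9 distal tip markers, 4 were higher and 4 lower in the Rptor line, and 4 higher and 2 lower in the Tfam line. Of the latter, Fgfr2, a receptor of FGF ligands, was lost without control replicate 1 or any single deficient replicate (highest limma adjusted p = 0.103). Etv5, a target of FGF signalling in the tip, was lower (-1.07 and -0.55) while its relative Etv4 was higher (0.35 and 0.71), as was Bmp4 (0.63 and 0.61). In the Rptor line Etv4 was lost without control replicate 1 or 2 or deficient replicate 2 or 3 (highest limma adjusted p = 0.0844). Wnt7b was lower in the Rptor line (-0.78). None of the 9 passed in the Cox10 line in limma, but 4 were higher and 3 lower with all 18 samples in a single fit, 3 higher and 1 lower without deficient replicate 1, and 2 higher and 1 lower without deficient replicate 3.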
